A study of Mus musculus with 65 samples.

Results

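The genes Rn7sk, Rmrp, Rpph1, Rny1, Rny3 and Vaultrc5 encode small noncoding RNAs made by RNA polymerase III. They were chosen by name, as 6 of the 42025 mouse genes whose start could be placed in a 1 kb window of the accessibility table. The list is by name and uses no threshold on a measured value, but it was drawn up with earlier results of these data known. All 6 were measured and all 6 passed the filter on low values.

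RNA polymerase III transcribes short untranslated RNAs. The 7SK, RMRP, RNase P and Y RNA genes are the kind whose promoter lies upstream of the start, where a TATA box and a proximal sequence element recruit TBP and the SNAP complex, while vault RNA genes carry internal A and B boxes like those of tRNA genes. 7SK RNA (Rn7sk) holds the kinase P-TEFb inactive. RMRP is the RNA of RNase MRP, which cuts precursor ribosomal RNA, and Rpph1 encodes the RNA of RNase P, which trims the 5′ ends of tRNAs. Y RNAs (Rny1, Rny3) bind the Ro60 and La proteins, and Vaultrc5 encodes the RNA of the vault particle.

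The study measured chromatin accessibility on newly replicated DNA in E14TG2a mouse embryonic stem cells of strain 129/Ola at passages 5 to 28, grown on gelatin with serum and LIF. In repli-ATAC-seq the transposase Tn5 cuts open chromatin, and fragments that carry the thymidine analogue EdU are then biotinylated and captured on streptavidin. Cells received 20 uM EdU for 10 min and were collected at once (nascent) or after a chase in 10 uM thymidine. In the inhibitor experiment every culture was first held for 2 h in DMSO, DRB or triptolide, and was collected nascent or after a 2 h chase, with 3 libraries in each of 6 EdU groups and 3 libraries of the uncaptured supernatant (unbound) in each of the 6 matching groups. DRB inhibits the P-TEFb kinase and triptolide inhibits TFIIH, and both are used to block RNA polymerase II. Neither their concentrations nor whether they remained in the medium after EdU could be taken from the labels. Further libraries without an inhibitor gave peak lists for nascent, 30 min, 1 h, 2 h and untreated steady state chromatin, a peak list for RNA polymerase II phosphorylated on serine 5 (S5P), and values for nascent and 2 h EdU libraries with 100 fly S2 cells added (2 libraries each). The labels do not say whether the libraries of a group are separate cultures. The p-values therefore rest on the spread between these libraries, which may be technical.

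Levels are RPM, the reads of a window per 1000000 reads of its library, in the 1 kb window nearest the gene start. EdU libraries held 1299334 to 5554604 recovered reads and unbound libraries 2351201 to 14363367, so 1 read was worth 0.180 to 0.770 RPM in an EdU library. A window with 0 reads in an EdU library allows up to 3 reads, or 0.540 to 2.31 RPM, from counting error alone. Many values of the nascent EdU libraries rest on 1 to 10 reads. All 8 embryonic stem cell markers were measured, with summed unbound levels of 34.5 to 69.3 RPM. The sums were 13.1 to 19.9 RPM for 6 fibroblast markers and 10.1 to 15.4 RPM for 5 primitive endoderm markers (Sox17 had no window). For 5 blood cell markers they were 2.31 to 3.55 RPM. The sums cover unlike numbers of genes, and single markers overlapped between lists. Unbound medians of stem cell markers ran from 1.74 (Esrrb) to 10.9 RPM (Zfp42). Those of fibroblast markers ran from 0.361 (Col3a1) to 6.53 RPM (Thy1), and of primitive endoderm markers from 0.424 (Gata4) to 4.26 RPM (Gata6). Because the samples were bulk, fewer open copies of a gene and a smaller opening on every copy cannot be told apart.

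All coordinates are on mm10 (GRCm38.p6), the build of the deposited files. Rn7sk (gene ID 19817, small nuclear RNA) lies on the minus strand at chr9:78175302-78175633. Rmrp (19782) lies on the minus strand at chr4:43492785-43493059 and Rpph1 (85029) on the minus strand at chr14:50807447-50807771. Rny1 (19872) is at chr6:47788070-47788180 on the minus strand and Rny3 (19874) at chr6:47781624-47781724 on the plus strand. Vaultrc5 (378472) is at chr18:36801763-36802107 on the plus strand. The genes are 101 to 345 bp long, so each window also holds flanking DNA.

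The start of the protein-coding gene Parp2 lies 126 bp from that of Rpph1 and both have the same window. The start of Ccdc107 lies 281 bp from that of Rmrp and its window shares 500 bp with the Rmrp window. For the other 4 genes the nearest protein-coding start is 7840 bp (Zmat2 to Vaultrc5) to 31888 bp (Pdia4 to Rny3) away. Rn7sk has a closer divergent neighbour, C920006O11Rik, which is not counted among the protein-coding genes. The RefSeq promoter of C920006O11Rik ends at chr9:78175913, inside the Rn7sk window (chr9:78175001-78176000). Rn7sk and the Y RNA genes have near-identical copies elsewhere in the genome. Their levels are uncertain, because the treatment of reads with several matches was not stated in the labels.

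Upstream sequence is shown for the 3 members for which the RefSeq promoter table of GRCm38.p6 covers the DNA through a divergent neighbour (C920006O11Rik, Ccdc107 and Parp2), because the data bear on these promoters. Each is written 5′ to 3′ in the direction of the small RNA gene. Capitals mark matches to TATAAA, to the octamer ATGCAAAT or to ACCNTAA, a part of the proximal sequence element, on either strand.
Rn7sk: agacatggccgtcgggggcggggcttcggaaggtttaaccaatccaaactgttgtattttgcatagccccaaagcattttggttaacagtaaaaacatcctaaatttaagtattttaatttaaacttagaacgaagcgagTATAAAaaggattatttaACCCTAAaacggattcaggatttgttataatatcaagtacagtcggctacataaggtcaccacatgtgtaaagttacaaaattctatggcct
Rmrp: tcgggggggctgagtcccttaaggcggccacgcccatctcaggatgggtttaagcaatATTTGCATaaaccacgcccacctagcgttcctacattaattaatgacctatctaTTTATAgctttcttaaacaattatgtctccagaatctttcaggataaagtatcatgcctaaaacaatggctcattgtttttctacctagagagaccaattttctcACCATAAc
Rpph1: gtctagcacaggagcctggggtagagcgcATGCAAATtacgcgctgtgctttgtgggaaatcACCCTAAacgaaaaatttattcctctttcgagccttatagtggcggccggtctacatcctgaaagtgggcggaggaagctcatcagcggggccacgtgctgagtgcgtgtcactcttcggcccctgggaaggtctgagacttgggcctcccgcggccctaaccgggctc
The Rn7sk stretch is chr9:78175664-78175913, minus strand, from -280 to -31 relative to the gene's first base. The Rmrp stretch is chr4:43493115-43493339, minus strand, from -280 to -56. The Rpph1 stretch is chr14:50807666-50807896, minus strand, from -125 to 106, so its last part is the start of the gene itself.

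ACCNTAA was present in all 3 stretches, beginning at -122 in Rn7sk and at -63 in both Rmrp and Rpph1. It occurs in 6.15% of the 32817 promoters of 250 bases in the table. The octamer was present in Rmrp, on the opposite strand at -222, and in Rpph1 at -96, and occurs in 1.60% of promoters. TATAAA was present in Rn7sk at -140 and on the opposite strand of Rmrp at -168, and occurs in 12.4% of promoters. In Rn7sk it lay upstream of ACCNTAA. The stretches end at -31 (Rn7sk) and -56 (Rmrp), so DNA nearer these starts was not searched. Whether any match is a working promoter element was not tested. No matches overlapped each other. The SPH core, the B box and the A box core had no match in these 3 stretches and occur in 1.53%, 0.235% and 0.521% of promoters.

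Rn7sk was among the most open of the 6 genes on mature chromatin and was low on nascent DNA. Its level was 2.31, 4.04 and 1.59 RPM in the 3 nascent DMSO libraries and 14.1, 12.6 and 15.2 RPM in the 3 libraries taken 2 h later. All 2 h libraries lay above all nascent ones, and the mean was 5.28-fold higher (2.64 ± 1.26 against 14.0 ± 1.32 RPM, SD, n = 3). With DRB the libraries held 3.78, 2.31 and 2.12 RPM in nascent chromatin and 8.74, 8.96 and 9.57 RPM at 2 h, so the DRB libraries overlapped DMSO in nascent chromatin and lay below it at 2 h. With triptolide they held 1.04, 0.905 and 1.26 RPM nascent and 6.05, 3.41 and 3.19 RPM at 2 h. The triptolide libraries lay below DMSO at both times without overlap. In unbound chromatin Rn7sk held 10.3, 14.5 and 11.8 RPM in the nascent DMSO libraries and 9.07, 14.7 and 12.7 RPM at 2 h, with overlap. The other unbound means were 11.1 ± 0.577 (nascent, DRB), 11.3 ± 1.60 (nascent, triptolide), 11.8 ± 1.76 (2 h, DRB) and 8.80 ± 0.877 RPM (2 h, triptolide). In the order of the 12 group means, 3 steps exceeded the sum of the neighbours' SDs. These were from nascent DRB unbound to 2 h DRB EdU, from 2 h triptolide unbound to 2 h triptolide EdU, and from nascent DMSO to nascent triptolide EdU.

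Rmrp, the RNase MRP gene, had the widest range. It held 1.15, 2.52 and 2.65 RPM in nascent DMSO libraries and 18.1, 17.6 and 15.5 RPM at 2 h, a mean 8.10-fold higher without overlap. Nascent DRB libraries held 0.473, 0 and 0.302 RPM, which is 2 reads over the 3 libraries. They lay below every nascent DMSO library, and the 2 h DRB libraries, with 9.18, 8.58 and 9.86 RPM, lay below every 2 h DMSO library. Triptolide libraries held 1.39, 0.453 and 0.900 RPM nascent, overlapping DMSO, and 2.02, 4.03 and 3.72 RPM at 2 h, far below both other treatments. Unbound chromatin held 17.2, 23.0 and 20.4 RPM in the nascent DMSO libraries and 16.7, 16.8 and 16.1 RPM at 2 h. The nascent unbound means were 16.2 ± 2.18 RPM with DRB and 15.1 ± 1.27 RPM with triptolide. At 2 h the unbound triptolide libraries (12.1, 11.6 and 10.3 RPM) and the unbound DRB mean (14.2 ± 0.731 RPM) lay below unbound DMSO without overlap. In the order of group means, steps beyond the summed SDs separated unbound DRB from unbound triptolide at 2 h, the latter from 2 h DRB EdU, and 2 h DRB EdU from 2 h triptolide EdU.

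Rpph1, the RNase P RNA gene, had the highest mean of the 6 in the nascent DMSO and nascent triptolide EdU libraries, in the window it shares with Parp2. In the nascent DRB libraries Rn7sk and Vaultrc5 had higher means. It held 5.19, 5.05 and 3.44 RPM in nascent DMSO libraries and 8.28, 13.7 and 13.3 RPM at 2 h, a mean 2.58-fold higher without overlap. DRB libraries held 1.89, 0 and 2.72 RPM nascent, below all nascent DMSO libraries, and 8.30, 10.8 and 10.7 RPM at 2 h, overlapping DMSO. Triptolide libraries held 1.74, 2.26 and 2.88 RPM nascent and 2.88, 2.79 and 2.39 RPM at 2 h. Both triptolide groups lay below their DMSO group, and they overlapped each other. In unbound chromatin the nascent means were 12.8 ± 3.35 (DMSO), 9.21 ± 1.53 (DRB) and 10.8 ± 2.09 RPM (triptolide), and the 2 h means 10.6 ± 2.60, 9.18 ± 3.27 and 7.93 ± 0.685 RPM. The DMSO nascent mean was the highest of these and the 2 h triptolide mean the lowest. In the order of group means, steps beyond the summed SDs separated 2 h triptolide unbound from nascent DMSO EdU, and nascent DMSO EdU from 2 h triptolide EdU.

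The Y RNA genes had low levels throughout. Rny1 held 0, 1.51 and 0.794 RPM in nascent DMSO libraries, 6 reads in all, and 3.37, 4.32 and 2.21 RPM at 2 h, without overlap. Its 2 h libraries held 0.437, 1.87 and 1.74 RPM with DRB and 0.576, 0.621 and 0.798 RPM with triptolide, in both cases below every 2 h DMSO library. Rny3 held 2.88, 0.505 and 0.265 RPM in nascent DMSO libraries and 2.76, 3.24 and 4.15 RPM at 2 h. The first nascent library, with 5 reads, overlapped the 2 h range, and the other nascent libraries lay well below it. At 2 h Rny3 held 1.31, 1.49 and 1.16 RPM with DRB and 0.576, 0.310 and 0.532 RPM with triptolide. The 3 treatments did not overlap each other at 2 h. In nascent DRB libraries both genes were at 0 in the first 2 libraries, with 2 reads (Rny1) and 1 read (Rny3) in the third. Nascent triptolide means were 0.594 ± 0.373 RPM (Rny1) and 0.563 ± 0.123 RPM (Rny3). In unbound chromatin the Rny1 nascent means were 3.44 ± 0.747 (DMSO), 3.10 ± 0.280 (DRB) and 2.44 ± 0.428 RPM (triptolide), and the 2 h means 3.41 ± 0.503, 2.86 ± 0.638 and 2.24 ± 0.391 RPM. The unbound Rny3 nascent means were 4.01 ± 1.86 (DMSO), 2.84 ± 0.753 (DRB) and 2.60 ± 0.527 RPM (triptolide), and the 2 h means 3.23 ± 0.698, 2.62 ± 0.599 and 2.32 ± 1.05 RPM. Both were highest in nascent DMSO and lowest in 2 h triptolide samples. Neighbouring group means of Rny1 never differed beyond their summed SDs, and those of Rny3 did so at 1 step, from 2 h triptolide to nascent DRB, both near the level of 1 or 2 reads.

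Vaultrc5, the vault RNA gene, was the only one of the 6 with its lowest 2 h mean under DRB. It held 2.31, 2.02 and 1.59 RPM in nascent DMSO libraries and 5.21, 6.11 and 5.81 RPM at 2 h, a mean 2.90-fold higher without overlap. DRB libraries held 2.36, 1.54 and 1.21 RPM nascent and 1.31, 1.87 and 2.03 RPM at 2 h, and the times overlapped. Triptolide libraries held 0.348, 0.905 and 0.900 RPM nascent and 2.59, 2.17 and 2.13 RPM at 2 h, without overlap. At 2 h the triptolide libraries lay above the DRB libraries, where the other genes lay below them or, for Rny1, overlapped them. In unbound chromatin the nascent means were 9.38 ± 3.32 (DMSO), 6.73 ± 0.650 (DRB) and 7.28 ± 0.279 RPM (triptolide), and the 2 h means 6.94 ± 0.194, 5.34 ± 0.238 and 5.01 ± 0.286 RPM. The DMSO nascent mean was the highest of these and the 2 h triptolide mean the lowest. In the order of group means, steps beyond the summed SDs separated 2 h triptolide unbound from 2 h triptolide EdU, and nascent DRB from nascent triptolide EdU.

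**Figure D1:**
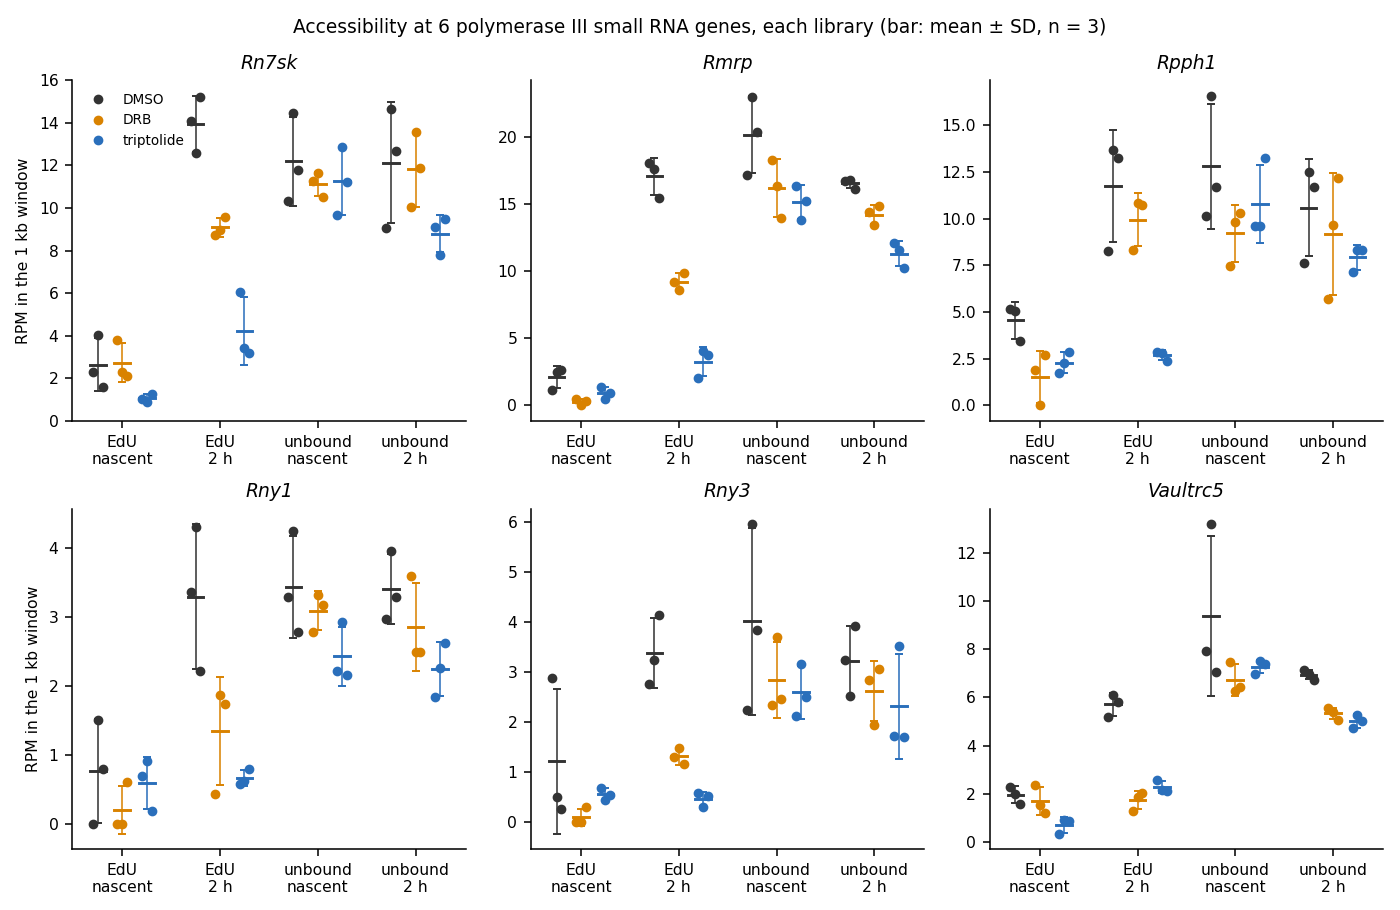
Level of each gene in RPM in its 1 kb window, by fraction and time (x axis) and treatment (colour). Points are libraries and bars are means ± SD (n = 3): EdU 2 h levels in DMSO stand near the unbound levels (Rmrp, 17.1 against 16.6 RPM), while nascent EdU levels (2.11 RPM) and 2 h triptolide levels (3.26 RPM) are lower.

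The first comparison asked how accessibility changed between nascent and 2 h chromatin in DMSO. All 6 genes rose, by 1.16 (Rny3) to 2.58 (Rmrp) on the log2(RPM + 1) scale, which understates changes of low genes. Over all 37592 gene starts tested, 23.6% rose, and the median difference was 0.15 against 1.27 for the 6 genes. The libraries did not overlap for 5 of the 6 genes (all but Rny3), against 30.0% of all gene starts. Rmrp rose by 2.58 (SE 0.33, adjusted p = 2.8e-12) and Rn7sk, the 7SK gene, by 2.09 (SE 0.31, adjusted p = 3.1e-09), by limma with Benjamini-Hochberg adjustment. Rny1 rose by 1.35 (SE 0.38, adjusted p = 0.0032) and Rpph1 by 1.18 (SE 0.31, adjusted p = 0.0014). Vaultrc5 rose by 1.18 (SE 0.35, adjusted p = 0.005) and Rny3 by 1.16 (SE 0.38, adjusted p = 0.014).

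The Y RNA rises rested on single libraries. Without the first nascent DMSO library Rny1 rose by 0.99 and no longer passed the threshold. Rny3 no longer passed it without nascent DMSO library 2 (0.97), nascent DMSO library 3 (0.85) or 2 h DMSO library 3 (1.03). The level in windows away from any peak also moved between the times, from a mean of 0.306 RPM in nascent DMSO to 0.193 RPM at 2 h. Scaled to those windows, the differences were 1.51 (Rny3) to 3.07 (Rmrp) and all 6 passed.

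Under DRB 4 of the 6 genes rose over the chase, against 26.3% of all gene starts. These were Rmrp by 3.04 (adjusted p = 1.5e-16), Rpph1 by 2.30 (adjusted p = 6.5e-11), Rn7sk by 1.46 (adjusted p = 4.1e-05) and Rny3 by 1.09 (adjusted p = 0.02). Rny1 missed the threshold at 0.94 (adjusted p = 0.051). Vaultrc5 was at 0.03 (adjusted p = 0.99), with a 95% interval of -0.66 to 0.72. The libraries did not overlap for 4 genes (all but Rny1 and Vaultrc5), against 28.9% of gene starts. Leaving out nascent DRB library 1 or 2 or 2 h DRB library 2 ended the Rny3 call (1.02, 1.02 and 1.03). Leaving out nascent DRB library 3 or 2 h DRB library 1 brought Rny1 past it (1.17 and 1.26). The change over the chase was not shown to differ between DRB and DMSO for any of the 6 by limma, with 2 at an unadjusted p under 0.05 and 0 called by limma-voom. Of gene starts 0.0106% passed that test.

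Under triptolide 2 of the 6 genes rose over the chase, against 9.99% of all gene starts. Rn7sk rose by 1.30 (adjusted p = 0.0013) and Rmrp by 1.15 (adjusted p = 0.0089). Vaultrc5 missed the threshold at 0.96 (adjusted p = 0.058), although its libraries did not overlap, and it passed when scaled to windows away from peaks (1.09). Rpph1, Rny1 and Rny3 were at 0.18 (adjusted p = 0.8), 0.09 (adjusted p = 0.93) and -0.09 (adjusted p = 0.94). The libraries did not overlap for 3 of 6 genes, against 21.6% of gene starts. Rmrp no longer passed without nascent triptolide library 2 (0.96), 2 h triptolide library 2 (1.01) or 2 h triptolide library 3 (1.05). The test of the difference itself, the rise under triptolide minus the rise in DMSO, gave values below 0 for all 6 genes, from -1.43 (Rmrp, adjusted p = 0.14, 95% interval -2.33 to -0.52) to -0.22 (Vaultrc5, adjusted p = 0.93). By limma 0 of the 6 passed, against 0.484% of gene starts, while 4 had an unadjusted p under 0.05 and limma-voom called 0.

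**Figure D2:**
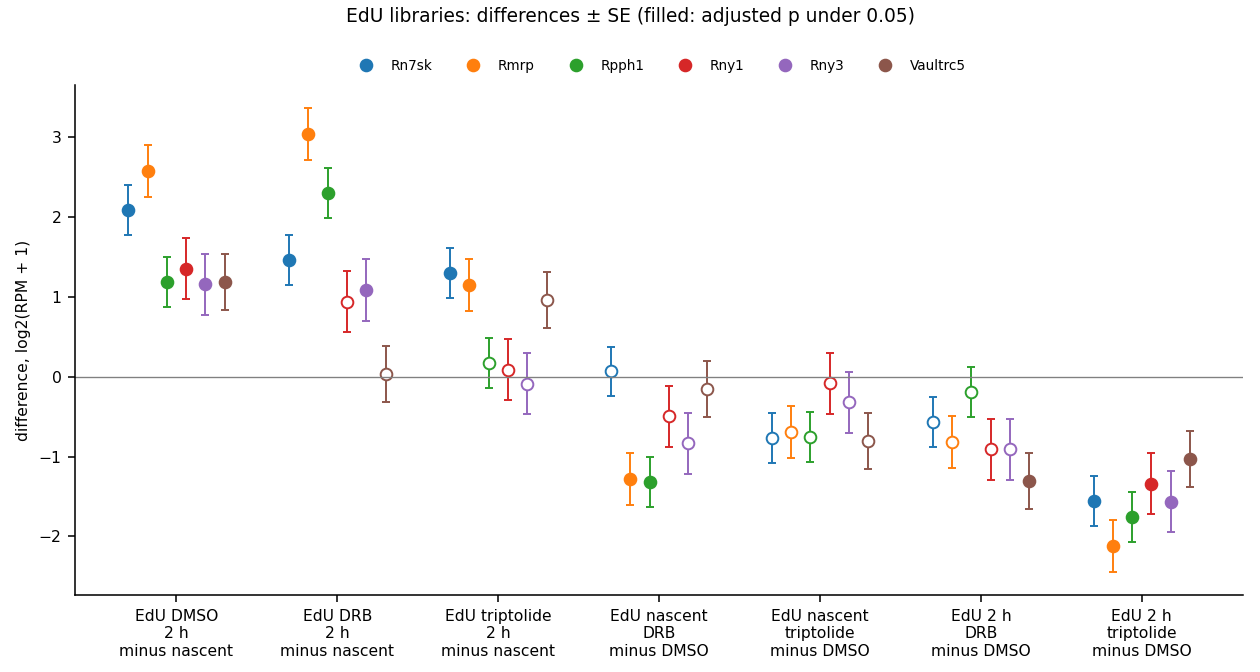
Differences of the 6 genes on the log2(RPM + 1) scale (y axis) in 7 comparisons of EdU libraries (x axis), with SE bars and filled points where adjusted p is under 0.05. All 6 points are filled and above 0 for DMSO over the chase, and all 6 are filled and below 0 for triptolide against DMSO at 2 h.

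Triptolide at 2 h was the treatment comparison in which all 6 genes fell. Of all gene starts 20.6% fell, with a median difference of -0.15 against -1.56 for the 6 genes. The triptolide libraries lay below the DMSO libraries without overlap at all 6 genes, against 29.5% of gene starts. The mean triptolide level was 14.0% (Rny3) to 40.2% (Vaultrc5) of the DMSO mean. Rmrp differed by -2.12 (SE 0.33, adjusted p = 1.2e-08) and Rpph1 by -1.76 (SE 0.31, adjusted p = 9.8e-07). Rny3 differed by -1.57 (SE 0.38, adjusted p = 0.00054) and Rn7sk by -1.56 (SE 0.31, adjusted p = 1.5e-05). Rny1 differed by -1.34 (SE 0.38, adjusted p = 0.0037) and Vaultrc5 by -1.03 (SE 0.35, adjusted p = 0.019).

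The Vaultrc5 call was the least firm of these. It was lost without 2 h DMSO library 2 (-0.98) or 3 (-1.01), and without 2 h triptolide library 2 (-0.999) or 3 (-0.99). Windows away from peaks held a mean of 0.239 RPM with triptolide and 0.193 RPM with DMSO at 2 h. After scaling to these windows the differences were -2.39 (Rmrp) to -1.28 (Vaultrc5) and all 6 passed.

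In unbound chromatin at 2 h 1 of the 6 genes fell with triptolide. This was Rmrp, at -0.51 (SE 0.13, adjusted p = 0.004), against 9.16% of the 38284 gene starts tested in that fraction. The other 5 were between -0.44 (Rny1, adjusted p = 0.15) and -0.35 (Rpph1, adjusted p = 0.22). Unbound triptolide libraries lay below unbound DMSO without overlap at Rmrp, Rny1 and Vaultrc5, and unbound DRB libraries at Rmrp and Vaultrc5. The share of all gene starts without overlap was not counted in this fraction. Rn7sk, at -0.40 (adjusted p = 0.069), passed without unbound 2 h DMSO library 1 (-0.58). Scaled to windows away from peaks, 5 of the 6 passed (all but Rny3), from -0.79 (Rmrp) to -0.62 (Rpph1), and over 3 windows 4 of the 6 did. Whether the fall at 2 h was larger in EdU than in unbound chromatin was not tested. In the other inhibitor comparisons of unbound chromatin 0 of the 6 genes passed by limma. These were DRB in nascent samples (0.624% of gene starts), triptolide in nascent samples (1.71%) and DRB at 2 h (1.35%). In the same order 3, 1 and 1 of the 6 had an unadjusted p under 0.05, and limma-voom called 0, 1 and 0.

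With DRB at 2 h 1 of the 6 genes fell. The vault RNA gene Vaultrc5 fell by 1.30 (SE 0.35, adjusted p = 0.035), against 0.548% of gene starts. That call did not survive leaving out any single library of the 2 groups, with differences of -1.38 to -1.19. The DRB libraries lay below the DMSO libraries without overlap at 5 genes (all but Rpph1), against 12.7% of gene starts. DRB means were 30.4% (Vaultrc5) to 84.8% (Rpph1) of the DMSO means. Rmrp was at -0.82 (adjusted p = 0.25), with a 95% interval of -1.46 to -0.18. Rn7sk was at -0.57 (adjusted p = 0.51), with an interval of -1.18 to 0.04, and Rpph1 at -0.20 (adjusted p = 0.91). Rny1 and Rny3 were both at -0.91 (adjusted p = 0.3 for each). Set side by side, the 2 h triptolide libraries lay below the 2 h DRB libraries at Rn7sk, Rmrp, Rpph1 and Rny3, against 22.3% of gene starts, and above them at Vaultrc5, against 5.04%. The difference between the drugs was not tested.

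In nascent chromatin 2 of the 6 genes were lower with DRB than with DMSO, against 2.28% of gene starts. These were Rpph1, at -1.32 (SE 0.31, adjusted p = 0.0068), and Rmrp, at -1.28 (SE 0.33, adjusted p = 0.012). They were also the 2 whose libraries did not overlap (11.1% of gene starts), and the 2 whose windows share DNA with that of a protein-coding start. Both calls rested on few reads, 13 and 2 over the 3 DRB libraries, and on nascent DRB library 2, in which both genes were at 0. Without it the differences were -0.74 (Rpph1) and -1.13 (Rmrp) and neither passed. Rmrp also failed to pass without nascent DMSO library 2 (-1.17) or 3 (-1.15). With the window moved 500 bp downstream, Rmrp was at -0.13 (adjusted p = 0.9) and Rpph1 at -1.36 (adjusted p = 0.081). Ccdc107, whose window overlaps that of Rmrp, was at -1.03 (adjusted p = 0.064), and Parp2 has the Rpph1 window. Rn7sk, whose RNA acts on the kinase that DRB inhibits, was at 0.07 (adjusted p = 0.95), with a 95% interval of -0.55 to 0.68. Rny3, Rny1 and Vaultrc5 were at -0.83 (adjusted p = 0.24), -0.50 (adjusted p = 0.53) and -0.15 (adjusted p = 0.87).

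With triptolide 0 of the 6 genes passed in nascent chromatin by limma, against 7.40% of gene starts that fell. At an unadjusted p under 0.05 there were 4, all lower, and limma-voom called 0. Vaultrc5 was at -0.80 (adjusted p = 0.15), Rn7sk at -0.76 (adjusted p = 0.12), Rpph1 at -0.75 (adjusted p = 0.13) and Rmrp at -0.69 (adjusted p = 0.2). The libraries lay below DMSO without overlap at Rn7sk, Rpph1 and Vaultrc5, against 17.2% of gene starts. Rny3 was at -0.32 (adjusted p = 0.71) and Rny1 at -0.08 (adjusted p = 0.95). Neither nascent drug effect was shown to differ between EdU and unbound chromatin for any of the 6 genes, where 0.275% (DRB) and 4.14% (triptolide) of the 38492 gene starts passed by limma. For these 2 and 1 of the 6 had an unadjusted p under 0.05, and limma-voom called 0 for both.

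The unbound fraction served as the comparison for EdU-captured chromatin, since it is the supernatant of the capture and was not selected for new DNA. In nascent DMSO samples all 6 genes were lower in EdU than in unbound chromatin, against 33.4% of gene starts. The EdU mean was 10.4% (Rmrp) to 35.6% (Rpph1) of the unbound mean. The differences ran from -2.80 (SE 0.22, adjusted p = 6.3e-15) for Rmrp to -1.30 (SE 0.31, adjusted p = 0.00042) for Rny3. At Rny3 the EdU and unbound libraries overlapped, and its call was lost when only the compared groups were fitted (adjusted p = 0.12 by limma). By 2 h in DMSO the EdU means had reached 82.3% (Vaultrc5) to 115% (Rn7sk) of the unbound means. At Vaultrc5 the EdU libraries (5.21 to 6.11 RPM) still lay below the unbound libraries (6.74 to 7.12 RPM) without overlap. In this 2 h comparison 0 of 38492 gene starts passed by limma, although 2033 had an unadjusted p under 0.05 and limma-voom on the recovered reads called 6. Unbound chromatin itself gave 0 of 38284 gene starts between the nascent and 2 h DMSO samples by limma, although 2660 had an unadjusted p under 0.05, and limma-voom also called 0.

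The change over the chase differed between the fractions at all 6 genes, against 21.3% of gene starts. The excess in EdU chromatin was 2.84 (SE 0.31, adjusted p = 2.4e-09) for Rmrp and 2.11 (SE 0.32, adjusted p = 2e-06) for Rn7sk. For Vaultrc5 it was 1.52 (SE 0.32, adjusted p = 0.00023), for Rpph1 1.43 (SE 0.40, adjusted p = 0.0054), for Rny1 1.35 (SE 0.42, adjusted p = 0.013) and for Rny3 1.35 (SE 0.43, adjusted p = 0.017). The Rny1 call was lost without EdU nascent DMSO library 1 (0.99). The Rny3 call was lost without EdU nascent DMSO library 2 (1.16) or 3 (1.04), and without library 2 of nascent DMSO (1.08) or of 2 h DMSO (1.22) in unbound chromatin.

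A separate pair of groups, without an inhibitor and with fly S2 cells added, gave values for 5 kb regions around gene starts on a log2 scale. The labels do not say how the fly reads entered that scale. Rmrp held 4.51 and 4.70 in the nascent libraries and 7.95 and 7.81 at 2 h. Rn7sk held 5.45 and 6.41 nascent and 7.84 and 7.99 at 2 h, and Rpph1 5.12 and 5.39 nascent and 7.48 and 7.53 at 2 h. These 3 genes were the highest at 2 h, and their 2 h libraries lay above both nascent ones. Rny1 held 4.58 and 5.31 nascent and 6.24 and 6.46 at 2 h. Rny3 held 3.82 and 5.14 nascent and 5.98 and 6.40 at 2 h. Vaultrc5 held 4.29 and 5.61 nascent and 6.04 and 6.07 at 2 h. Here too no 2 h library fell within the nascent range.

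By limma 5 of the 6 genes rose in these libraries, against 30.1% of the 30618 regions tested. Rmrp rose by 3.27 (SE 0.52, adjusted p = 1.6e-07), Rpph1 by 2.25 (SE 0.52, adjusted p = 0.00051) and Rn7sk by 1.98 (SE 0.54, adjusted p = 0.0027). Rny3 rose by 1.71 (SE 0.54, adjusted p = 0.0094) and Rny1 by 1.41 (SE 0.53, adjusted p = 0.03), while Vaultrc5 was at 1.10 (adjusted p = 0.095). The median over all regions was 0.79, and the 6 genes lay above it. With each library centred on its median region 5 of the 6 passed, at smaller differences of 2.46 (Rmrp), 1.43 (Rpph1), 1.17 (Rn7sk), 0.90 (Rny3) and 0.59 (Rny1), with Vaultrc5 at 0.29. Without either 2 h library, with the lone library assumed to vary like the nascent group, 0 of the 6 and only 2 of all regions passed. The differences themselves changed little, to 3.20 or 3.34 for Rmrp and to 2.06 or 1.91 for Rn7sk. Without nascent library 2 all 6 passed.

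**Figure D3:**
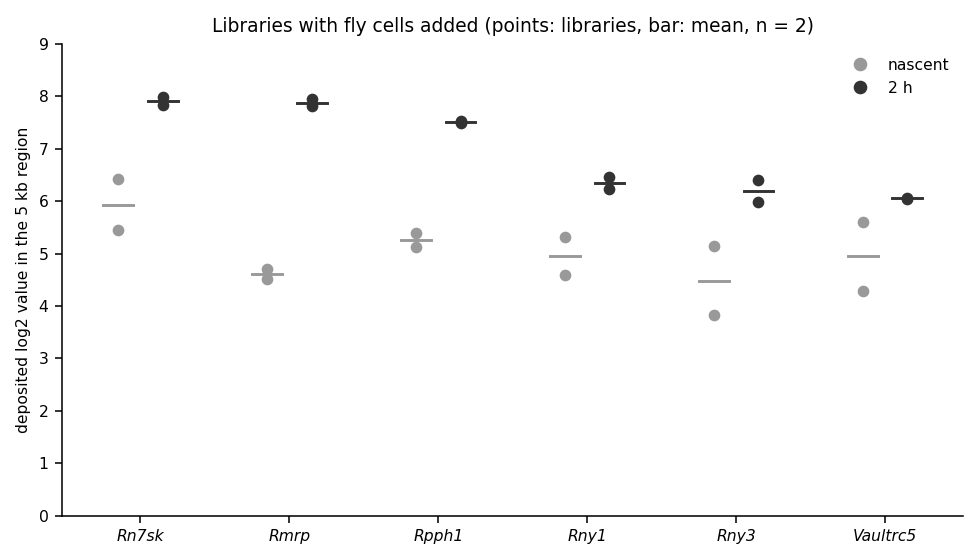
Deposited log2 value in the 5 kb region of each gene (y axis) in the libraries with fly cells added, nascent in grey and 2 h in black. Points are libraries and bars are means (n = 2): every 2 h point lies above both nascent points of its gene, with Rmrp at 4.51 and 4.70 against 7.95 and 7.81.

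The peak lists of the experiment without inhibitors ordered the genes by when a peak was first listed. Each list combines replicates, so these presences carry no error. Rn7sk, Rmrp and Rpph1 had a peak in their window in the nascent list, where 25.3% of the 40247 gene-start windows had one, and these 3 also at 30 min (30.7% of windows). Vaultrc5 joined at 1 h, making 4 of 6 (33.6%), and Rny1 and Rny3 at 2 h, making 6 of 6 (38.0%). All 6 also had a peak at steady state (44.3%). None of the 6 windows held a peak in the list for S5P RNA polymerase II, against 12% of windows.

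The gene start of Rmrp lay inside a nascent peak of 400 bp (chr4:43492726-43493125), which was 525 bp long at 2 h. A second nascent peak in the Rmrp window, of 600 bp (chr4:43493301-43493900), held the start of Ccdc107. Such a second peak was also listed at 1 h, 2 h and steady state, but not at 30 min. The start of Rpph1 lay inside a peak of 750 bp in nascent and 775 bp in 2 h chromatin. Both peaks also held the start of Parp2, so a peak of 1 gene cannot be told apart from a peak of the other. At Rn7sk the nascent list held peaks on both sides of the start, at chr9:78175251-78175550 and chr9:78175776-78176075, 83 and 143 bp away from it. The latter peak also held chr9:78175913, where the promoter of the divergent neighbour C920006O11Rik ends. From 1 h on the Rn7sk start lay inside a peak, which at 2 h spanned chr9:78175026-78175750 (725 bp). The first peaks at Rny1 and Rny3, in the 2 h list, were 475 and 325 bp long and held the gene starts. A further 2 h peak of 450 bp in the Rny1 window lay 146 bp from the Rny1 start. The 1 h peak at Vaultrc5 was 525 bp long and held the start.

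The profile around each start set the gene's window against its flanks. The ratio of the gene's window to the mean of the windows 4 to 10 kb away in 2 h DMSO libraries was 16.2 ± 3.48 for Rmrp (SD, n = 3), 9.85 ± 2.78 for Vaultrc5, 8.91 ± 2.65 for Rn7sk and 7.99 ± 1.72 for Rpph1. It was 4.28 ± 0.870 for Rny3 and 1.42 ± 0.418 for Rny1. The windows of Rny1 and Rny3 lie in each other's flanks, and the flank mean of Rny1 was the highest, at 2.33 RPM. In nascent DMSO the ratios were 2.67 ± 1.13 for Rn7sk, 2.67 ± 1.54 for Rmrp and 3.23 ± 1.05 for Rpph1. They were 4.31 ± 2.74 for Vaultrc5, 2.86 ± 3.47 for Rny3 and 0.704 ± 0.685 for Rny1. In 2 h triptolide libraries they were 2.74 for Rn7sk, 2.70 for Rmrp, 2.28 for Rpph1, 1.38 for Rny1 and 0.984 for Rny3. Vaultrc5 had a ratio of 8.70 there, although its own window held 2.30 RPM against 5.71 RPM in 2 h DMSO. Its flank mean was lower too, at 0.264 RPM against 0.607 RPM. That flank holds the window of Zmat2, with a mean of 0.768 RPM in 2 h triptolide and 5.00 RPM in 2 h DMSO libraries. The part of Zmat2 in the Vaultrc5 ratio was not tested. In 2 h DRB libraries the Vaultrc5 ratio was 3.13. In 2 h DMSO the highest of the 21 windows was the gene's own for Rn7sk, Rmrp, Rpph1 and Vaultrc5. For Rny1 it was centred at -320.5 bp from the start, and for Rny3 it was centred at -3123.5 bp (10.5 RPM), outside the gene's window. That open site near Rny3 is also among the flank windows of Rny1, and its part in the Rny1 ratio was not tested. Rn7sk had a second site, with 7.35 RPM in the window centred at -1367.5 bp.

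**Figure D4:**
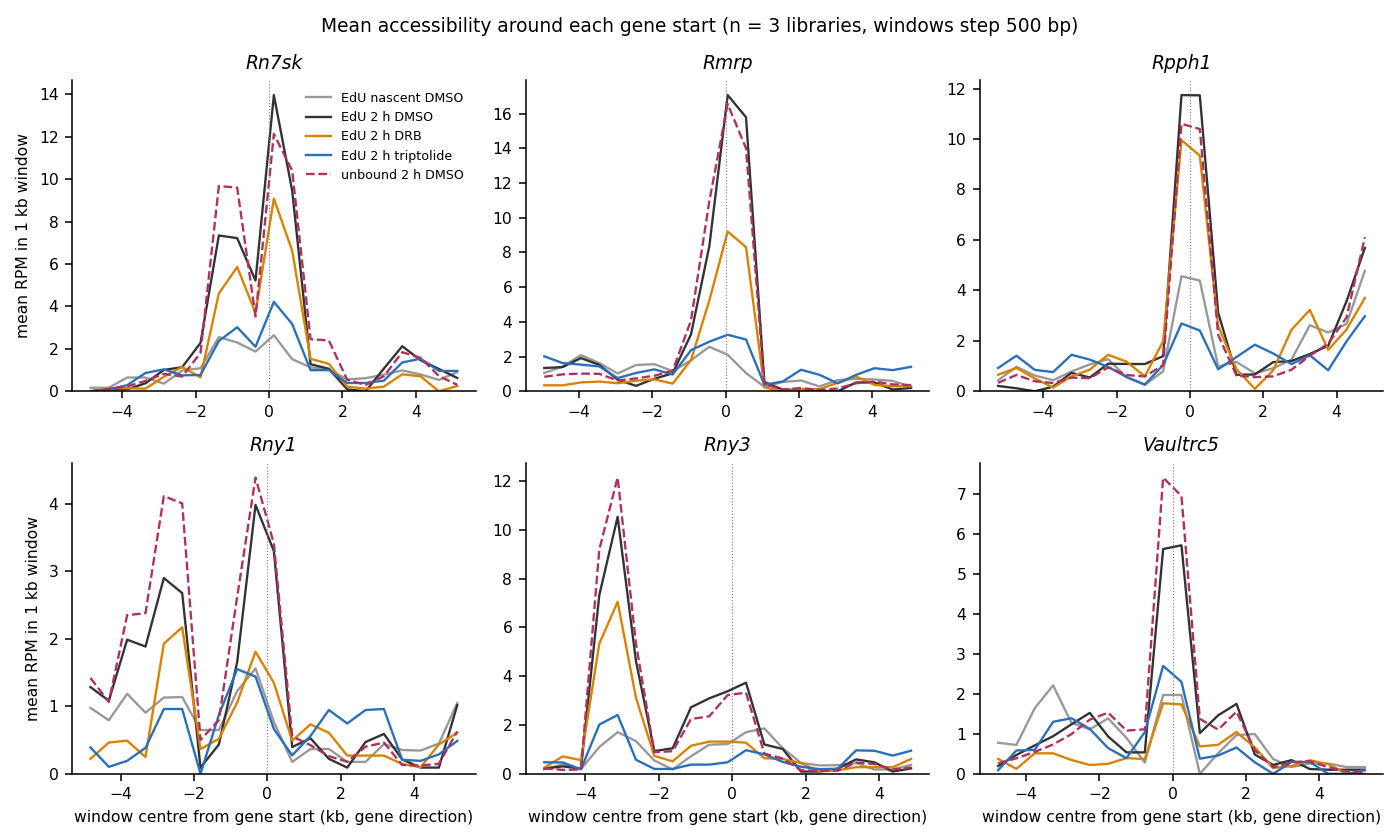
Mean RPM in 1 kb windows (y axis) by distance of the window centre from the gene start in kb, in the direction of the gene (x axis), for 5 groups (lines, n = 3). The 2 h DMSO line peaks at the start for Rn7sk, Rmrp, Rpph1 and Vaultrc5, and at -3123.5 bp for Rny3.

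Moving each window 500 bp downstream, away from a divergent neighbour, was an alternative chosen after the data were seen. The moved window held none of Rny1. It no longer held the start of Rn7sk, Rmrp or Vaultrc5, so their values there are of DNA past the start. In the moved window Rmrp rose by 3.25 over the chase in DMSO. For triptolide against DMSO at 2 h it was at -2.09, and both passed the threshold. Rpph1 was at 1.22 and -1.87, also both past it, in a window that still holds the start of Parp2 and so does not separate the 2 genes. Rn7sk kept both calls, but its rise over the chase under triptolide was at 0.70 and no longer passed. Rny1 was at 0.23 and -0.11 and passed in neither, Rny3 was at 0.85 over the chase and did not pass, and Vaultrc5 at -0.55 for triptolide did not pass. The differences of the neighbours had the same signs in their own windows. Ccdc107, whose window overlaps that of Rmrp, was at 1.41 (adjusted p = 0.00031) over the chase and -1.27 (adjusted p = 0.0014) for triptolide. Pdia4, nearest to the Y RNA genes, was at 1.67 (adjusted p = 1.7e-07) and -2.32 (adjusted p = 2.8e-13), and Zmat2, nearest to Vaultrc5, at 1.63 (adjusted p = 8.2e-05) and -1.76 (adjusted p = 2.1e-05). Gsta4, the protein-coding gene nearest to Rn7sk, was at 0.45 (adjusted p = 0.43) and -0.81 (adjusted p = 0.1) and did not pass. No value is given for C920006O11Rik, which lies nearer to Rn7sk. The part of the neighbours in the members' values was not tested.

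Genes that work with these RNAs were read from the same windows, in lists that describe the pathway and were not tested as sets. Over all gene starts 23.6% rose over the chase in DMSO (median 0.15) and 20.6% were lower with triptolide at 2 h (median -0.15), and the counts of each list stand against these shares. Of the other polymerase III transcripts 4 of 11 listed genes were tested. Over the chase 2 rose and 0 fell (median 0.71), the signal recognition particle RNA genes Rn7s2 by 1.67 (adjusted p = 1.1e-05) and Rn7s1 by 0.82 (adjusted p = 0.049). At 2 h 3 of the 4 were lower with triptolide (median -1.26). These were Rn7s1 at -1.51 (adjusted p = 7.2e-05), Rn7s2 at -1.49 (adjusted p = 0.00012) and the brain cytoplasmic RNA gene Bc1 at -1.04 (adjusted p = 0.017). Rn7s1 and Rn7s2 are near-identical copies, so their values are uncertain.

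Of 18 genes for polymerase III subunits 9 rose and 0 fell over the chase in DMSO (median 0.87), where 23.6% of all gene starts rose. Polr3g, a subunit with high expression in stem cells, rose by 1.68 (adjusted p = 5.2e-07), Polr1d by 1.54 (adjusted p = 6.3e-06) and Polr3k by 1.46 (adjusted p = 0.00011). With triptolide 12 of 18 were lower at 2 h (median -1.03), where 20.6% of gene starts were, led by Polr3k at -2.10 (adjusted p = 1.7e-08), Polr1d at -2.0 (adjusted p = 3.3e-09) and Polr3f at -1.81 (adjusted p = 1.1e-07). Of 19 initiation factor genes 10 rose (median 0.92). Snapc5 of the SNAP complex rose by 2.18 (adjusted p = 1.9e-11), the promoter activator gene Zfp143 by 1.55 (adjusted p = 2.2e-06) and Brf1, of TFIIIB, by 1.32 (adjusted p = 0.00023). With triptolide 14 of 19 were lower (median -1.13). Brf1 was at -2.24 (adjusted p = 1e-10), the SNAP complex gene Snapc4 at -2.15 (adjusted p = 2e-08) and Maf1, a repressor of polymerase III, at -2.0 (adjusted p = 6.8e-09).

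Of 6 genes for 7SK particle and P-TEFb proteins 3 rose over the chase (median 0.77, against 23.6% of gene starts that rose) and 3 were lower with triptolide at 2 h (median -0.92, against 20.6% that were lower). Hexim1, which binds P-TEFb on 7SK RNA, was at 1.10 (adjusted p = 0.0025) and -2.30 (adjusted p = 3.8e-11), and the 7SK capping enzyme gene Mepce at 1.07 (adjusted p = 0.0069) and -1.27 (adjusted p = 0.0011). Larp7 rose by 1.02 (adjusted p = 0.0097), and the cyclin gene Ccnt2 was at -1.10 (adjusted p = 0.0074) with triptolide. Of 11 RNase P and MRP protein genes 6 rose (median 0.86), Pop1 by 1.42 (adjusted p = 0.00022), Rpp21 by 1.35 (adjusted p = 0.0014) and Rpp14 by 1.19 (adjusted p = 0.0027). With triptolide 6 of the 11 were lower (median -0.85), Rpp25 at -1.53 (adjusted p = 6.4e-05), Rpp38 at -1.36 (adjusted p = 0.00024) and Pop7 at -1.36 (adjusted p = 0.00054). Of 5 genes for Ro, La and vault proteins 3 rose (median 0.92). Ro60 rose by 1.80 (adjusted p = 5.5e-07), the La gene Ssb by 1.09 (adjusted p = 0.0089) and the vault protein gene Tep1 by 0.88 (adjusted p = 0.04). With triptolide 2 of 5 were lower (median -0.69), Ro60 at -1.68 (adjusted p = 3.9e-06) and Parp4 at -1.61 (adjusted p = 0.00036). Among the genes named from these lists, the calls of Rn7s1, Larp7, Mepce, Ssb and Tep1 over the chase, and of Bc1 and Ccnt2 with triptolide, were lost without at least 1 library. With the window moved 500 bp downstream, calls of genes named beside the 6, in lists or as neighbours, were lost. Over the chase 12 of 24 genes lost their call, and with triptolide at 2 h 12 of 24 did. Among them were Snapc4 at -0.0039, Brf1 at -0.81, Polr3k at -0.48 and Hexim1 at -0.47 with triptolide, and over the chase Brf1 at -0.10 and Hexim1 at -0.43.

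Of 12 small RNA genes transcribed by RNA polymerase II, 11 rose over the chase in DMSO, against 23.6% of all gene starts (median 2.33, and 1.27 for the 6 polymerase III genes). At 2 h 11 of 12 were lower with triptolide, against 20.6% of gene starts (median -2.71, and -1.56 for the 6 genes). In other comparisons the medians were closer together or in the other order, with 0.45 and 0.57 for triptolide over the chase, -0.72 and -0.72 for nascent triptolide, -0.40 and -0.67 for nascent DRB, and -0.51 and -0.86 for DRB at 2 h. The U3 gene Rnu3a rose by 3.29 (adjusted p = 1.4e-21), the U1 gene Rnu1a1 by 2.93 (adjusted p = 3.9e-15) and the U3 gene Rnu3b4 by 2.77 (adjusted p = 5.9e-14). With triptolide they were at -3.97 (adjusted p = 9.4e-31), -3.16 (adjusted p = 3.2e-17) and -3.55 (adjusted p = 7.6e-22). In the test of the rise under triptolide minus the rise in DMSO, 8 of these 12 fell (median -1.96) and 0 of the 6 polymerase III genes did (median -1.13), where 0.484% of all gene starts passed in either direction. Several of these genes are near-identical copies, and the difference between the lists was not tested.

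**Figure D5:**
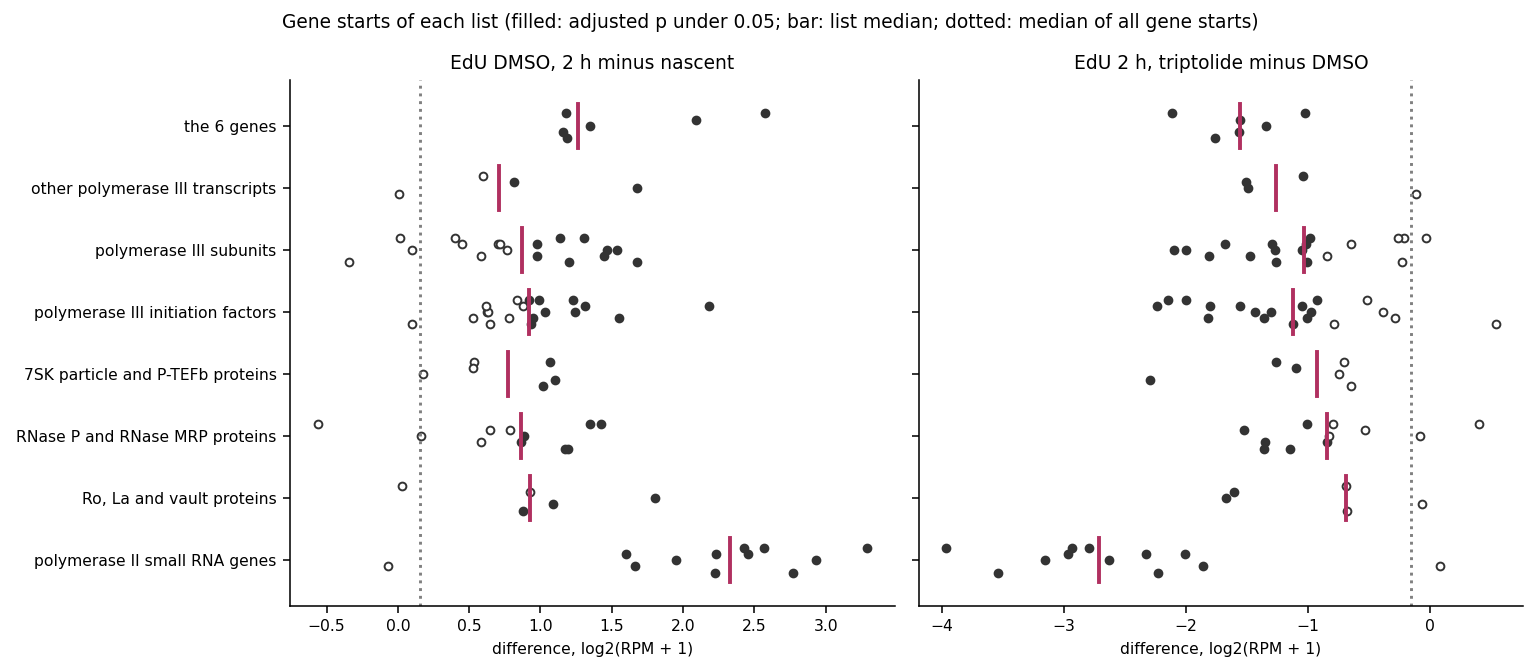
Differences of each tested gene start on the log2(RPM + 1) scale (x axis) by list (y axis), for DMSO over the chase (left) and triptolide against DMSO at 2 h (right). Filled points passed the threshold, red bars are list medians and the dotted line is the median of all gene starts: the medians run from 0.71 to 2.33 on the left and from -2.71 to -0.69 on the right.

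Across the 18 EdU libraries the 6 genes correlated with each other at r = 0.587 (Rpph1 and Vaultrc5) to 0.871 (Rn7sk and Rmrp), where all share the libraries, their depth and the treatment groups. The gene starts most like each gene were sought among 16074 with a mean log2(RPM + 1) of at least 1, at least 10 kb away, by Pearson correlation over these 18 libraries. They were Zfp972 (r = 0.975), B230307C23Rik (0.974) and Mylpf (0.968) for Rn7sk. For Rmrp they were Gm33388 (0.976), Ift27 (0.975) and Per2 (0.975), and for Rpph1 Uchl1os (0.961) and Htr6 (0.958). For Rny1 they were Cep20 (0.927), Prr15 (0.910) and the tRNA gene n-TMcat7 (0.908). For Rny3 they were D130051D11Rik (0.913), Ivd (0.913) and Ttbk2 (0.896). For Vaultrc5 they were Mobp (0.902), the tRNA gene n-TYgta9 (0.902) and Gm14139 (0.900). No member was among the 3 nearest of another, but Rny1 and Rny3 lay below the required mean and could not be listed.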

How the data were processed

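Repli-ATAC-seq libraries were trimmed with Trim Galore 0.4.2 and aligned to mm10 with Bowtie2 2.2.6.2, per the submitters' processing notes. The peak caller was not named in the sources used here. The authors deposited log2(RPM + 1) values for 36 inhibitor libraries in 5451088 windows of 1 kb at 500 bp steps, log2 values for 4 libraries with added fly cells in 5 kb gene-start regions, and peak lists. Dividing the deposited RPM by the smallest step gave whole reads, within 0.1 read, for 100% of values. Each gene was given the window nearest its start. Strands came from the RefSeq promoter table or the deposited gene-start regions, the midpoint was used for other genes of up to 1 kb, and genes with neither were left out, leaving 42025 genes in 40247 distinct windows.

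Windows above 0 in at least 3 libraries (2 for the fly-cell set) were tested with limma 3.58.1 in R 4.3.3, with a trend and a pseudocount of 1. P-values were adjusted by Benjamini-Hochberg within each comparison over all gene starts (threshold 0.05). Fits were made on all 18 EdU libraries, all 18 unbound libraries, all 36 together, and the 4 fly-cell libraries. Simulated data were made for the DMSO chase comparison (37278 windows, 50 changed for each fold, mean RPM of at least 2). Of the changes, 18% of 2-fold, 76% of 4-fold, 88% of 8-fold and 90% of 16-fold were recovered. Of 37078 unchanged windows 9 were called. The spread between simulated libraries was a set value, not taken from the data. Rny1 and Rny3 lie below that mean RPM, so the recovered shares do not cover them. A peak was counted where it overlapped the window by 1 bp or more. Named genes were the 6 members, up to 3 genes past the threshold with the largest difference from each list, the nearest protein-coding gene, and the 3 most correlated gene starts, of which 1 is not reported here. The members, lists and tests were chosen with earlier results of these data known. Alternatives were pseudocounts of 0.25 and 4, other filters, 2 other scalings, limma-voom on recovered reads, a mean of 3 windows, fits of the compared groups alone, a replicate block, each library left out, and a shifted window. S5P signal of EdU chromatin was not used here.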

Additional observations from a re-analysis of the deposited data

Results flagged for a closer look

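The change from nascent to 2 h chromatin in DMSO differed between EdU-captured and unbound chromatin at all 6 genes, by the test of the difference itself (limma, adjusted over 38492 gene starts, of which 21.3% passed in that direction). The difference was 2.108 for Rn7sk, 2.838 for Rmrp, 1.434 for Rpph1, 1.353 for Rny1, 1.349 for Rny3 and 1.522 for Vaultrc5 on the log2(RPM + 1) scale. The EdU mean of Rmrp went from 2.11 to 17.1 RPM while its unbound mean went from 20.2 to 16.6 RPM.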

How the results depend on the processing

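Among values for single genes, 1888 kept their direction and side of the threshold under an alternative, 138 fell below it, 40 passed it and 32 turned in direction, and the cause was not tested. With the shifted window Brf1 (-0.10), Hexim1 (-0.43) and Zmat2 (-0.18) turned for DMSO over the chase, Zmat2 (0.11) for triptolide at 2 h, Rny1 (0.13) for DRB at 2 h, Rn7sk (-0.40) and Vaultrc5 (0.31) for nascent DRB, Rny1 (0.087) and Vaultrc5 (0.080) for nascent triptolide, and Rny3 (0.23) for triptolide over the chase. For DRB over the chase Vaultrc5 was -0.15 centred on the median window, -0.090 over 3 windows and -0.11 to 0.20 with each library left out in turn. For triptolide over the chase Rny1 was -0.030 centred and -0.11 to 0.23 with libraries left out, Rny3 0.058 scaled to windows away from peaks, and Rpph1 -0.030 over 3 windows. For nascent DRB Rn7sk was -0.052 scaled, -0.32 over 3 windows, and -0.15 to 0.33 with libraries left out, and Vaultrc5 was 0.092 over 3 windows. For nascent triptolide Rny1 was 0.0098 with a pseudocount of 0.25, 0.060 centred and -0.44 to 0.22 with libraries left out, where Rny3 was -0.63 to 0.18. For the rise under triptolide minus that in DMSO, Vaultrc5 was 0.020 with a pseudocount of 0.25 and 0.011 by limma-voom.

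The count of the 6 genes past the threshold moved as follows. For DMSO over the chase (6) it was 5 to 6 with each library left out and 4 to 6 otherwise, as it was for triptolide at 2 h (6). For DRB over the chase (4) it was 3 to 5. For triptolide over the chase (2) it was 1 with the shifted window and with only the compared groups, 3 with no filter, a mean RPM of at least 1, scaling or 3 windows, where Vaultrc5 passed too, and 1 to 2 with libraries left out. For nascent DRB (2) it was 1 with a pseudocount of 4, no filter, centring or 3 windows, 0 by limma-voom, with the shifted window and with only the compared groups, and 0 to 2 with libraries left out. For nascent triptolide (0) it was 1 with no filter. For DRB at 2 h (1) it was 0 with a pseudocount of 0.25, the shifted window or only the compared groups, 2 with a pseudocount of 4 or limma-voom, 4 scaled, 3 over 3 windows, and 0 with any library left out. For the rise under triptolide minus that in DMSO (0) it was 1 with a pseudocount of 4, scaled, or over 3 windows. In unbound chromatin it was 1 by limma-voom for nascent triptolide (0). For unbound triptolide at 2 h (1) it was 2 with a mean RPM of at least 1, 3 centred, 5 scaled, 4 over 3 windows and 1 to 2 with libraries left out. For the nascent DRB effect between fractions (0) it was 1 with a pseudocount of 0.25. For the fly-cell libraries (5) it was 0 with no filter and 0 to 6 with libraries left out.

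Over all gene starts the counts moved from 9488 to between 6065 and 14656 (DMSO over the chase), 10644 to between 6316 and 14652 (DRB), 3897 to between 1169 and 8311 (triptolide), 948 to between 0 and 1488 (nascent DRB), 2927 to between 0 and 3580 (nascent triptolide), 305 to between 0 and 2236 (DRB at 2 h) and 8714 to between 5263 and 12702 (triptolide at 2 h). Rises made up 92.9% of calls for DRB over the chase and 81.5% when centred, 9.70% and 30.7% for nascent DRB, 32.5% and 12.1% when scaled for DRB at 2 h, and 95.7% and 57.2% when centred for the fly-cell libraries. They made up 11.8% and 21.9% when centred for nascent EdU against unbound, and 19.4% and 5.89% when scaled for unbound triptolide at 2 h. Scaling to windows away from peaks moved the median of all gene starts from 0.15 to 0.34 for DMSO over the chase and from -0.15 to -0.26 for triptolide at 2 h.

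Replicate numbers did not pair the libraries by the bar of a correlation over 0.1 for every number. Deviations of same-numbered libraries correlated at -0.024 to 0.037 within EdU chromatin and at -0.011 to 0.11 within unbound chromatin, and between EdU and unbound at 0.096, 0.027 and 0.093 in 2 h DMSO. Whether unbound and EdU libraries of 1 number share a culture is not in the labels, and with a block the counts of the 6 genes between fractions did not change. With a replicate block the count of the 6 genes was 2 for unbound triptolide at 2 h, 1 for the fly-cell libraries, and 5 for DRB over the chase. Depth limits the nascent values most, where a gene at 0 reads may hold up to 2.31 RPM.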

Other observations

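Transfer RNA genes, the most numerous genes of polymerase III, were looked at after the values of the 6 genes had been seen. The gene table held 408 of them in 396 windows, of which 359 passed the filter. Over the chase in DMSO 228 of the 359 (63.5%) rose and 1 fell, against 23.6% of all gene starts that rose, with a median difference of 1.23 on the log2(RPM + 1) scale against 0.15. Under DRB 206 (57.4%) rose, against 26.3%, and 4 fell (median 1.07). Under triptolide 101 (28.1%) rose, against 9.99%, and 0 fell (median 0.61). At 2 h 130 (36.2%) were lower with triptolide than with DMSO, against 20.6% of gene starts, and 1 was higher (median -0.56, against -0.15). With DRB at 2 h 6 (1.67%) were lower, against 0.548%, and 0 higher (median -0.23). In nascent chromatin 15 (4.18%) were lower with triptolide, against 7.40% of all gene starts, and 3 higher. With DRB 5 (1.39%) were lower, against 2.28%, and 0 higher. In the test of the rise under triptolide minus the rise in DMSO, 12 (3.34%) fell and 0 rose (median -0.59), where 0.484% of all gene starts passed in either direction. Many tRNA genes are near-identical copies that lie close together, so their windows are not independent and their read counts are uncertain. The difference between the tRNA genes and the 6 genes was not tested.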
